A study of Mus musculus with 24 samples.

Results

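The mitochondrial genome of the mouse carries 37 genes, and these were followed in the hypothalamus of overfed and control mice. The members are the rows of the count table whose chromosome is MT, 37 of 55471 genes, and they comprise 13 protein-coding genes, 2 rRNA genes and 22 tRNA genes. All mice were 18-week-old C57BL6/J males on chow with an intragastric catheter. Experimentally overfed mice (ExpOF) received a sucrose-supplemented liquid diet into the stomach for 14 days, and control mice received sterile water. Mice were sampled at the end of overfeeding (d14) or 3 days into recovery, when all mice received water (d14+3), which gave 4 groups of 6 mice and 1 poly-A selected RNA library from each mouse. The Control d14 group is used here with 5 libraries (replicate 4 is left out, because the study removed 1 mouse of this group for poor RNA quality), and results that turn on that library are also given with it. Hypothalamus is bulk tissue, so fewer cells of a type and less RNA per cell cannot be told apart.

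Mitochondrial DNA is a small circular genome present in many copies in each cell. All of its protein-coding genes encode subunits of oxidative phosphorylation: mt-Nd1 to mt-Nd6 and mt-Nd4l belong to complex I, mt-Cytb to complex III, mt-Co1 to mt-Co3 to complex IV, and mt-Atp6 and mt-Atp8 to ATP synthase. The rRNAs mt-Rnr1 and mt-Rnr2 form the mitochondrial ribosome together with imported proteins, and the tRNAs serve translation inside the organelle. Each strand is transcribed as a long precursor by the polymerase Polrmt, the tRNAs are cut out of it, and this frees the mRNAs and rRNAs that lie between them. In the annotation 12 protein-coding genes, both rRNA genes and 14 tRNA genes lie on the plus strand, and mt-Nd6 and 8 tRNA genes lie on the minus strand.

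The sequences show where a single read of a mitochondrial gene also fits a nuclear copy. Parts of the mitochondrial genome are also present as copies in nuclear chromosomes, and a read from a stretch that is the same in both fits either place. The libraries were read as paired ends, so the other read of a pair can still place it. The windows of single reads used below do not take pairs into account. The first bases of mt-Co2 (MT:7013-7072, plus strand) and of its copy Gm28661 (chr1:24615506-24615565, minus strand) had 0 differences over 60 bases. The first 60 bases of mt-Nd3 (MT:9459-9518) and of Gm28438 (chr1:24613060-24613119, minus strand) had 1 difference, printed in capitals. In mt-Co1 (MT:6381-6460) the copy Gm29216 (chr1:24616118-24616197, minus strand) begins with 6 differences in capitals and then runs identical to the end of the 80 bases shown.
mt-Co2: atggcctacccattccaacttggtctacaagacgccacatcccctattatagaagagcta
Gm28661: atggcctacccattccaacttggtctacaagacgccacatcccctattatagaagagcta
mt-Nd3: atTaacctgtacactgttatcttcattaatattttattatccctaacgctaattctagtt
Gm28438: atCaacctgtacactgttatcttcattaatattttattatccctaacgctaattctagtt
mt-Co1: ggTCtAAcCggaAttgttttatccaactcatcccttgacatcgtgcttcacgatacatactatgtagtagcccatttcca
Gm29216: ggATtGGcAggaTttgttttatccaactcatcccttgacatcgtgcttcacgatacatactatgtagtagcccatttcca

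Of the tRNAs described below 3 are shown next, with the anticodon in capitals. They are mt-Tl1 (MT:2676-2750, plus strand), the leucine tRNA for UUR codons, mt-Te (MT:14071-14139, minus strand), the glutamate tRNA, and mt-Tc (MT:5192-5257, minus strand), the cysteine tRNA. They are 75, 69 and 66 bases long. No window of 51 bases (the read length) in any of them was found in an annotated nuclear transcript, and unannotated sequence was not searched. The pseudogenes Gm13339 (copy of mt-Nd2) and Gm13340 (copy of mt-Co1) lie on chromosome 2 at the same offset to the mitochondrial genome. Between mt-Nd2 and mt-Co1 lie mt-Tw, mt-Ta, mt-Tn, mt-Tc and mt-Ty. Whether the stretch between these pseudogenes holds copies of these tRNA genes was not tested. All sequences are from the GENCODE vM21 transcripts of GRCm38 (mm10), in which the 37 genes have the same positions as in the count table.
mt-Tl1: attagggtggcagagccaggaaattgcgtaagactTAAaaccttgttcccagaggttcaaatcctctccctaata
mt-Te: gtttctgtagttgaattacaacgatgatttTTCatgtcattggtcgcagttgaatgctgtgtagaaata
mt-Tc: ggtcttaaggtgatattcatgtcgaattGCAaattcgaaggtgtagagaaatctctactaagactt

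Levels are given as CPM, the counts per 1000000 counts of the TMM-scaled library total, and levels are compared between genes per kilobase of gene length. The libraries held between 8928182 and 34848437 counts. Of the 37 genes, 21 passed edgeR's filter on low counts: 8 protein-coding genes, both rRNA genes and 11 tRNA genes. mt-Co1 had the highest level per length, with a mean over the 23 libraries of 8421 CPM per kb, followed by mt-Cytb (5529 CPM per kb), mt-Nd1 (4432 CPM per kb), mt-Nd2 (2685 CPM per kb), mt-Rnr2 (2396 CPM per kb), mt-Nd6 (2077 CPM per kb) and mt-Rnr1 (2054 CPM per kb). Below these stood mt-Nd4 with 1890 CPM per kb and mt-Nd5 with 1571 CPM per kb. mt-Nd3 had 38.3 CPM per kb of its full length, the lowest of the tested protein-coding genes. Among the tested tRNAs the mean level ran from 6.07 CPM per kb for mt-Ti to 579 CPM per kb for mt-Tp, the proline tRNA, which held more counts than any other tRNA gene.

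**Figure D1:**
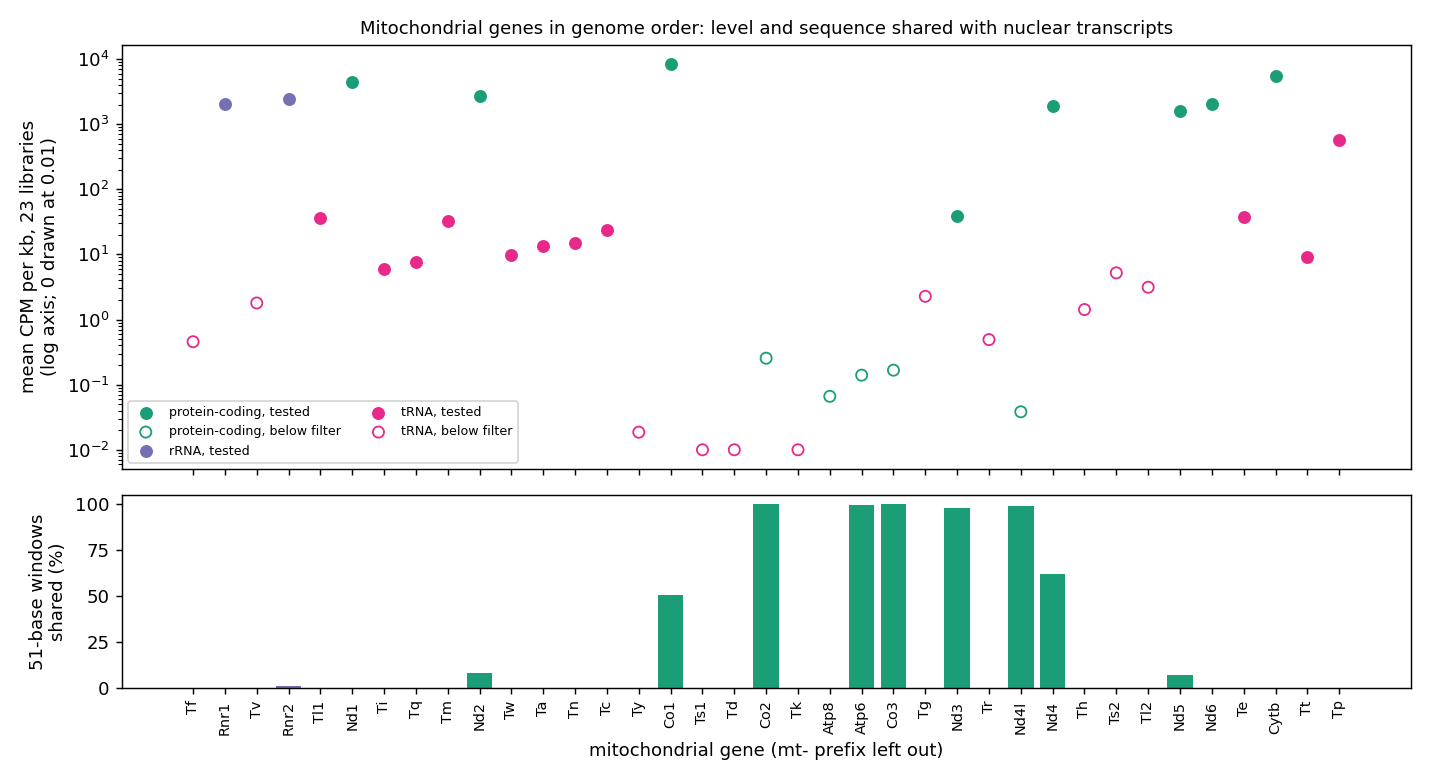
Mean level of each mitochondrial gene over 23 libraries in CPM per kb on a log axis (upper panel; filled points passed the filter, open points did not) and the percent of its 51-base windows that also occur in annotated nuclear transcripts (lower panel), with the genes in genome order. Bars near 100% stand under the open points of mt-Co2, mt-Atp6, mt-Co3 and mt-Nd4l and the filled point of mt-Nd3, and the open points of the tRNA genes and mt-Atp8 have no bar.

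The 16 genes that did not pass the filter were not spread evenly over the genome. A block of 7 nuclear genes annotated as unprocessed pseudogenes lies on chromosome 1 (chr1:24611535-24616197, minus strand) and runs in the same order as MT:6381-11043, with an offset that varied by 1 base. Of the 11 mitochondrial genes that lie wholly within that stretch 1 passed the filter (mt-Nd3), and the other 10 had at most 12 counts in any library. mt-Co1 and mt-Nd4 overlap the stretch in part and passed, and of the 24 genes outside it 18 passed. The share of 51-base windows found in nuclear transcripts was 100% for mt-Co2, 99.9% for mt-Co3, 99.5% for mt-Atp6, 98.8% for mt-Nd4l, 98.0% for mt-Nd3, 62.2% for mt-Nd4 and 50.6% for mt-Co1. It was 8.0% for mt-Nd2, 7.22% for mt-Nd5, 0.979% for mt-Rnr2 and 0% for the remaining genes. mt-Atp8 has none of its windows in a nuclear transcript and was listed with at most 4 counts; it lies between the parts of the block that are annotated as Gm10925 and Gm28661. With the mean CPM divided by the number of unshared windows in place of the full length, which takes all counted reads to come from those windows, mt-Nd3 with its 6 unshared windows had 2224 CPM per kb. On that scale mt-Nd5 had 1741, mt-Nd6 2298, mt-Nd2 3066, mt-Nd1 4677, mt-Nd4 5187, mt-Cytb 5781 and mt-Co1 17629 CPM per kb. The places of mt-Nd3 and mt-Nd4 in the order of levels thus depend on which length is used.

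mt-Co2 had between 0 and 12 counts in the 24 libraries, mt-Co3 between 0 and 8, mt-Atp6 between 0 and 7, mt-Atp8 between 0 and 4 and mt-Nd4l between 0 and 2. Of these, mt-Atp8 has no annotated nuclear copy, and unannotated sequence was not searched. The annotated copies of the others held more. Gm28661, the copy of mt-Co2, had between 324 and 3204 counts, and Gm28437, the copy of mt-Co3, between 298 and 2578. Gm10925, the copy of mt-Atp6, had between 281 and 1895, and Gm10222, the copy of mt-Nd4l, between 6 and 182. Each is 100% identical to its mitochondrial gene over the aligned bases, so these counts cannot be assigned to the nuclear copies alone. So the low counts of these mitochondrial mRNAs are values of the count table and cannot be read as low expression, and how reads with several positions were counted is not given in the sources used here. Among the tRNAs under the filter, mt-Ts1, mt-Td and mt-Tk had 0 counts in every library, and 3 counts, the limit that a count of 0 allows, correspond to 0.0861 to 0.336 CPM in the 23 libraries. All of them lie within the stretch that is copied on chromosome 1, and only annotated nuclear transcripts were searched for copies. This limit therefore holds for the count table and cannot be read as low expression. mt-Ts2, the serine tRNA for AGY codons, reached 29 counts, the most among the genes that did not pass, and mt-Tf, mt-Tv, mt-Ty, mt-Tg, mt-Tr, mt-Th and mt-Tl2 had at most 19.

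Of the 15 nuclear genes that shared at least 1 window with a mitochondrial gene 14 were analysed here, and they had log2 fold changes between -0.48 and 0.15 on d14 and between -0.23 and 0.55 on d14+3, with adjusted p of at least 0.328 and 0.775 (edgeR). On d14 the value was -0.45 ± 0.31 (SE) for Gm28661 (edgeR quasi-likelihood test, adjusted p = 0.334) and -0.48 ± 0.32 for Gm29216 (edgeR, adjusted p = 0.328).

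The share of all counts that fell on the mitochondrial genome describes the 37 genes together and was given no test. In Control d14 mice it was 3.08%, 3.57%, 3.66%, 3.74% and 3.91%. In ExpOF d14 mice it ran from 3.80% to 4.38% with a median of 4.16%. Overfed mice had the higher values on d14, and 4 of 6 lay above every control mouse. The means were 4.12% ± 0.237 (SD, n = 6) and 3.59% ± 0.311 (SD, n = 5), a difference of 0.523 percentage points, beside a pooled SD of 0.272. The mice came in 2 cohorts, and the difference was 0.492 points among July mice and 0.587 points among September mice. Without Control d14 replicate 5, the lowest of the controls, it was 0.396 points, and with the left-out library, whose share was 2.36%, it was 0.729 points.

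On d14+3 the share ran from 2.96% to 4.18% (median 4.02%) in control mice and from 3.20% to 4.42% (median 4.01%) in ExpOF mice. The groups overlapped over nearly their whole range, and the difference was 0.0439 points beside a pooled SD of 0.472. It turned to -0.132 points without Control d14+3 replicate 1, and to -0.0638 and -0.031 points without ExpOF d14+3 replicates 3 and 2, and it was 0.331 points without the Control d14+3 libraries of low RNA integrity. For a single library the 95% Wilson interval of the share was at most 0.0268 points wide, which covers counting error only, so the spread between mice was far wider than counting error.

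The classes did not carry the same differences. The 13 protein-coding genes took 3.04% ± 0.302 (SD, n = 5) of the counts in Control d14 and 3.52% ± 0.172 (SD, n = 6) in ExpOF d14, and 3.22% ± 0.393 and 3.34% ± 0.411 (SD, n = 6 each) in the d14+3 groups. The rRNAs took 0.551% ± 0.0881 in Control d14, 0.592% ± 0.0724 in ExpOF d14, 0.614% ± 0.0716 in Control d14+3 and 0.537% ± 0.103 in ExpOF d14+3. All 22 tRNA genes took 0.00592% ± 0.000792 in Control d14+3 and 0.00426% ± 0.00126 in ExpOF d14+3 (SD, n = 6 each). They took 0.00477% ± 0.0014 (SD, n = 5) in Control d14 and 0.00618% ± 0.00182 (SD, n = 6) in ExpOF d14. Most tRNA counts fell on mt-Tp. The 21 tRNA genes other than mt-Tp had together 19.1 ± 6.64 CPM of the unscaled total in Control d14+3 and 8.31 ± 2.37 in ExpOF d14+3 (SD, n = 6 each). On d14 the same sum was 11.6 ± 6.46 (SD, n = 5) in controls and 17.8 ± 12.3 (SD, n = 6) in ExpOF mice, where ExpOF d14 replicate 5, the shallowest library, had 42.2 and the other ExpOF mice 8.49 to 16.4.

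**Figure D2:**
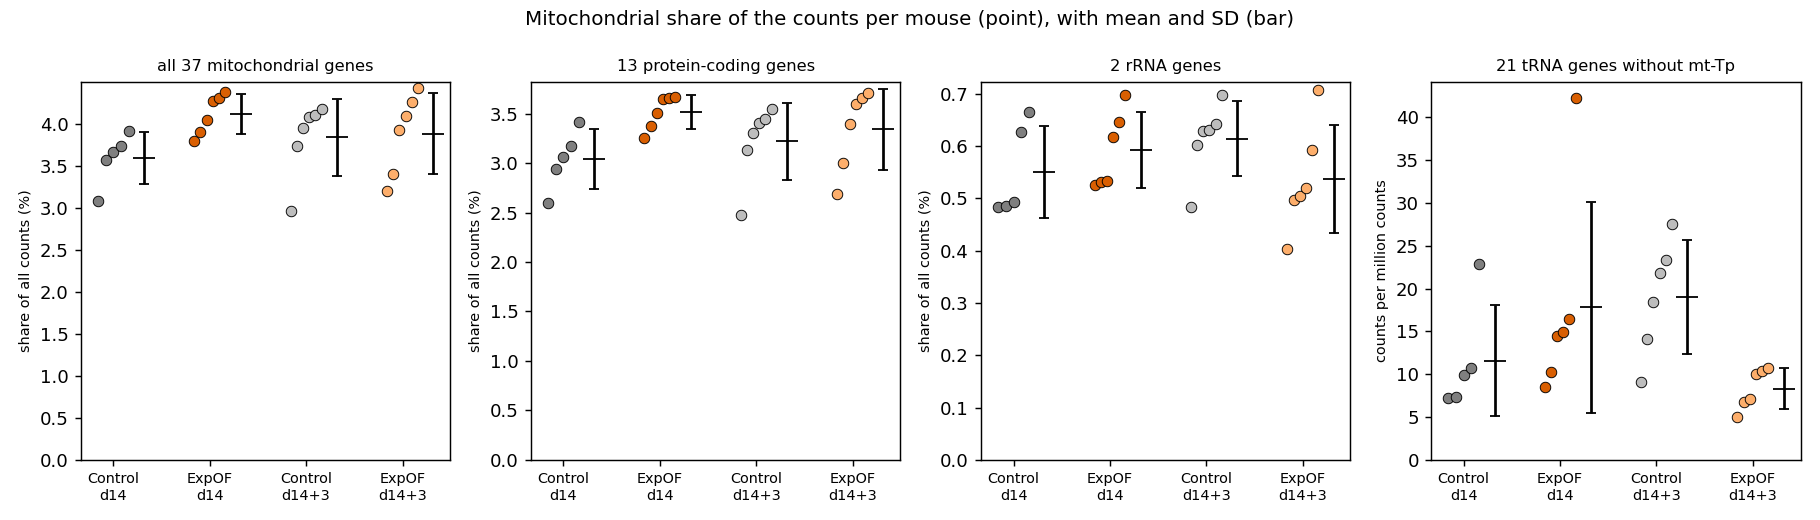
Share of all counts per mouse (points) for all 37 genes, the 13 protein-coding genes and the 2 rRNA genes, in percent, and CPM of the unscaled total for the 21 tRNA genes without mt-Tp, with the mean and SD of each group as a bar beside the points. In the panel of all 37 genes 4 of the 6 ExpOF d14 mice lie above every Control d14 mouse, and in the rRNA panel 1 does. The ExpOF d14+3 mice lie between 4.94 and 10.7 in the tRNA panel, where 5 of the 6 Control d14+3 mice lie above them.

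RNA integrity and other tissue varied along with the groups. RNA integrity numbers (RIN), as labelled, ran from 8.0 to 10.0 in Control d14, from 9.6 to 10.0 in ExpOF d14, from 7.2 to 9.9 in Control d14+3 and from 8.8 to 10.0 in ExpOF d14+3. All 8 hypothalamic markers and all 12 markers of neurons, astrocytes, oligodendrocytes and microglia were detected in every library. The hypothalamic markers summed to between 688 and 1274 CPM in Control d14, 648 and 893 CPM in ExpOF d14, 550 and 845 CPM in Control d14+3 and 487 and 703 CPM in ExpOF d14+3. For overfed against control mice their median log2 fold change was -0.41 on d14 and -0.12 on d14+3, with 0 called by edgeR. An unadjusted p under 0.05 with a lower level was found for 4 and 2 of the 8, against 13.6% and 4.2% of all genes tested. From Control d14 to Control d14+3 all 8 were lower (median -0.50). EdgeR called 1 of them there, 1 neuron marker (higher) and the tested pituitary marker (-7.17), against 1.15% of all genes. From ExpOF d14 to ExpOF d14+3 all 8 were lower (median -0.32), with 0 called. The sums of the 3 markers of each cell type were 2004 to 2665 CPM for neurons, 874 to 1145 CPM for astrocytes, 4122 to 6213 CPM for oligodendrocytes and 73.3 to 86.0 CPM for microglia over all groups. On d14 2 of the 3 oligodendrocyte markers had an unadjusted p under 0.05 with a lower level, and the other had a log2 fold change of 0.05. With a higher level, 1 of the 3 markers each of neurons, astrocytes and microglia reached it, against 13.1% of all genes tested. With a lower level, 1 of 3 endothelial markers, both tested choroid plexus markers and the 1 tested pituitary marker did. On d14+3 it was reached by 1 endothelial marker (lower) and 1 choroid plexus marker (higher). The 3 choroid plexus markers summed to between 2.63 and 2920 CPM in Control d14 and between 1.35 and 4.59 CPM in ExpOF d14, and the highest value belonged to replicate 5, the Control d14 library with the lowest mitochondrial share. On d14+3 that sum was 1.85 to 31.0 CPM in controls and 2.65 to 1217 CPM in ExpOF mice. The 3 pituitary markers summed to 0.116 to 103 CPM in Control d14 and to at most 18.2 CPM in the other groups, the 3 red blood cell markers to 98.1 to 122 CPM in Control d14, 52.9 to 257 CPM in ExpOF d14, 52.6 to 132 CPM in Control d14+3 and 37.6 to 117 CPM in ExpOF d14+3, and the 3 endothelial markers to between 111 and 156 CPM in all groups. The part of these markers in the results was not tested. For RIN, values with it as a covariate or without the libraries of RIN under 8.5 are given with the d14+3 results. Control d14 replicates 5 and 1 had the lowest RIN of the d14 libraries, 8.0 and 8.6. Values without each of them are given with the d14 results, where RIN and single mice cannot be told apart.

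After 14 days of overfeeding most mitochondrial mRNAs had higher levels in most overfed mice, yet no mitochondrial gene passed the test across all genes. With edgeR's quasi-likelihood test 0 of the 21 tested genes had an adjusted p under 0.05. An unadjusted p under 0.05 was found for 7, all with higher levels in ExpOF d14. Over all 18992 genes tested with edgeR the adjusted threshold was passed by 0.00527%. An unadjusted p under 0.05 with a higher level was reached by 13.1%. DESeq2 called 0 of the mitochondrial genes, and over all genes it called 165 of the 12844 given an adjusted p. All 8 tested protein-coding genes and both rRNA genes had positive log2 fold changes, as had 9 of the 11 tested tRNA genes. The median over the tested protein-coding genes was 0.21, against -0.02 over all genes tested. No gene had ExpOF d14 and Control d14 mice wholly apart, which 2.5% of all genes tested had in either direction.

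mt-Nd2, a core subunit of complex I (MT:3914-4951), had the smallest p. Its levels in Control d14 mice were 1865, 2108, 2294, 2452 and 2910 CPM, and in ExpOF d14 mice they ran from 2818 to 3603 CPM with a median of 3185 CPM. A single control mouse, replicate 1, lay within the range of the overfed mice. The log2 fold change was 0.46 ± 0.14 (SE) with an adjusted p of 0.135 (edgeR; unadjusted p = 0.00256). July mice alone gave 0.51 and September mice 0.38.

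mt-Nd5 (MT:11742-13565) had 1815, 1882, 2161, 2793 and 3373 CPM in Control d14 mice and from 3052 to 3604 CPM (median 3163 CPM) in ExpOF d14 mice. The overfed mice lay close together and the controls were widely spread, with 1 control above all but 1 of them. Its log2 fold change was 0.42 ± 0.16 (edgeR, adjusted p = 0.141). mt-Nd3 (MT:9459-9806), the low member with the nuclear copy, had 7.38, 10.3, 10.6, 12.4 and 12.9 CPM in controls and 12.7 to 22.9 CPM (median 16.0 CPM) in ExpOF mice, a log2 fold change of 0.59 ± 0.23 (edgeR, adjusted p = 0.142).

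The remaining mRNAs differed less between the groups. mt-Nd4 had a log2 fold change of 0.22 ± 0.08 (edgeR, adjusted p = 0.139), mt-Nd1 of 0.21 ± 0.10 (edgeR, adjusted p = 0.179) and mt-Co1, the catalytic subunit of complex IV, of 0.20 ± 0.08 (edgeR, adjusted p = 0.145). In each of these 3 genes 5 of 6 overfed mice lay above every control mouse. mt-Cytb, the subunit of complex III, had 0.13 ± 0.06 (edgeR, adjusted p = 0.196), with 4 of 6 overfed mice above every control. mt-Nd6 (MT:13552-14070), the only protein-coding gene of the minus strand, had 0.01 ± 0.10 (edgeR, adjusted p = 0.960), while the 7 tested plus-strand genes had 0.13 to 0.59. Its end overlaps the end of mt-Nd5 on the other strand, and whether the counting used strand is not given in the sources used here.

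**Figure D3:**
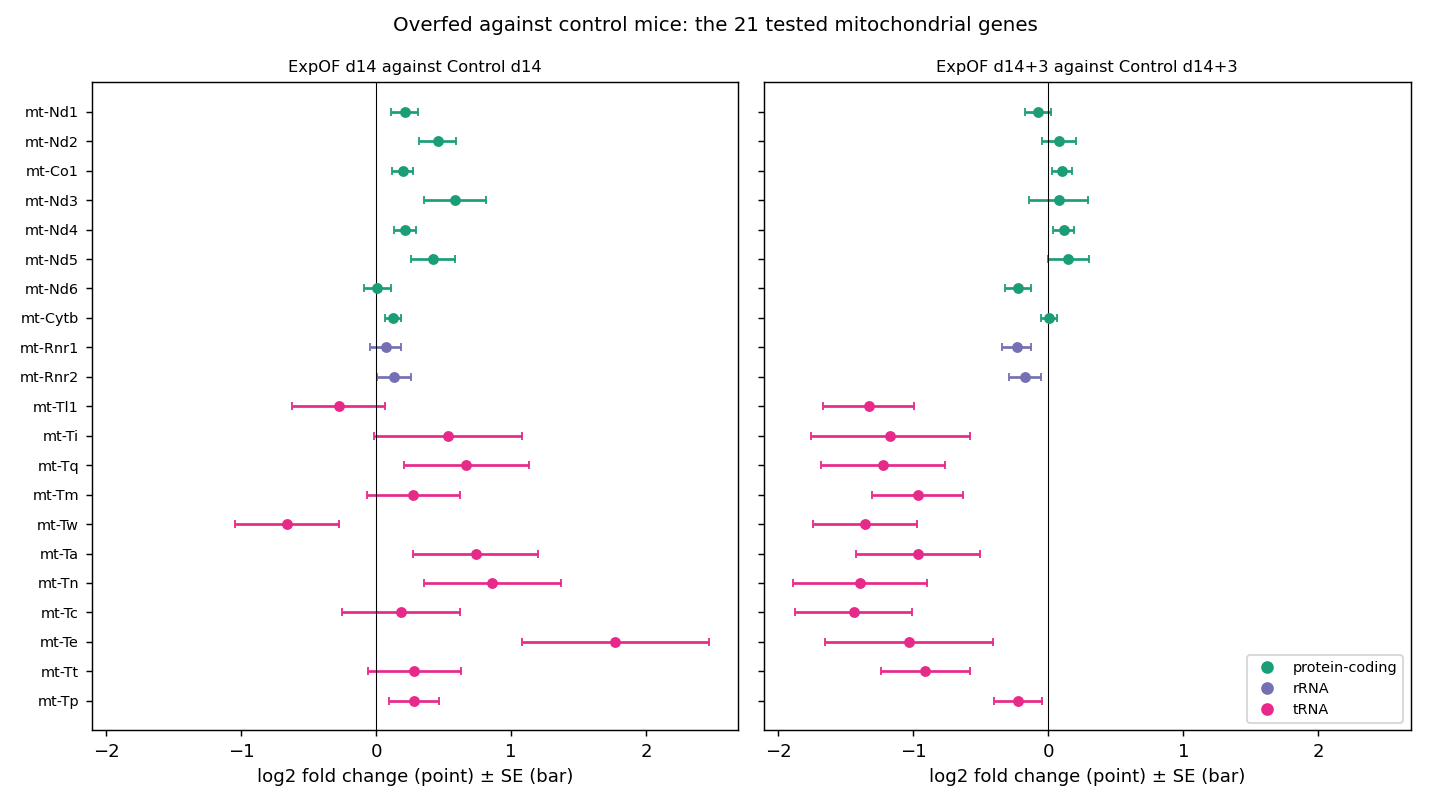
Log2 fold change with its SE for the 21 tested mitochondrial genes, ExpOF against control mice on d14 (left) and d14+3 (right). On d14 the protein-coding genes sit at or right of 0, between 0.01 and 0.59, and on d14+3 the 11 tRNA genes sit left of 0, between -1.44 and -0.23.

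The call for these mRNAs changed with 1 control mouse. Without Control d14 replicate 1, which had the highest mt-Nd2 level of its group, mt-Nd2, mt-Co1, mt-Nd4 and mt-Nd5 passed the threshold (edgeR, adjusted p = 0.0201, 0.0448, 0.031 and 0.0216), and then 22% of all genes tested passed as well. Without Control d14 replicate 5 the log2 fold change of mt-Nd2 was 0.39 (edgeR, adjusted p = 0.325) and that of mt-Co1 was 0.15 (edgeR, adjusted p = 0.343). With the left-out library the 8 protein-coding genes had a median of 0.37 and the rRNAs turned to -0.16 for mt-Rnr1 and -0.17 for mt-Rnr2.

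Both rRNAs had values near 0 on d14, and the SE of the tRNAs other than mt-Tp ran from 0.34 to 0.69. mt-Rnr1 had a log2 fold change of 0.07 ± 0.11 (edgeR, adjusted p = 0.691) and mt-Rnr2 of 0.13 ± 0.13 (edgeR, adjusted p = 0.498). Among the tRNAs mt-Te had the largest value, 1.77 ± 0.69 (edgeR, adjusted p = 0.143): its levels were 0.368, 0.44, 0.658, 1.17 and 2.41 CPM in Control d14 mice and 1.63 to 12.3 CPM (median 2.37 CPM) in ExpOF d14 mice. Replicate 5 was far above the other overfed mice, and without it the log2 fold change was 1.14. mt-Tw, the tryptophan tRNA, had -0.66 ± 0.39 and mt-Tl1 had -0.28 ± 0.35, and the other 8 tRNAs lay between 0.19 for mt-Tc and 0.86 for mt-Tn. The 6 tested minus-strand tRNAs had a median of 0.70 and the 5 plus-strand ones a median of 0.28, a difference that was not tested.

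After 3 days of recovery the values differed by class. The mRNAs were near 0, the rRNAs had small negative values, and all 11 tested tRNA genes had lower levels in ExpOF d14+3 mice. None of the 21 genes passed edgeR's test at an adjusted p of 0.05, as 0% of all genes tested did. An unadjusted p under 0.05 with a lower level was found for 10 of them, 8 tRNA genes, mt-Rnr1 and mt-Nd6, against 4.2% of all genes tested, and none with a higher level, against 2.91%. DESeq2 called 1, mt-Tl1. The median log2 fold change of the 11 tRNA genes was -1.17, against 0.01 over all genes tested. July mice alone gave a median of -0.88 and September mice -1.24, and all 11 had negative values in each cohort and under every alternative in which they were tested. The libraries were poly-A selected, and reads over a tRNA gene can come from the mature tRNA or from a precursor, which these counts do not separate. Many tRNA genes adjoin or overlap a neighbouring gene, as mt-Tl1 adjoins mt-Rnr2 and mt-Nd1. How reads over 2 genes were counted is not given in the sources used here. The tRNAs share precursors and mice, so their number is not a number of independent tests.

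mt-Tl1 was the clearest of them. Its levels ran from 2.75 to 6.75 CPM (median 3.39 CPM) in Control d14+3 mice and from 1.05 to 2.17 CPM (median 1.61 CPM) in ExpOF d14+3 mice. Every overfed mouse lay below every control mouse, which held for 0.421% of all genes tested in either direction. The counts behind these levels were 61 to 184 in controls and 23 to 54 in ExpOF mice. Its log2 fold change was -1.33 ± 0.34 (edgeR, adjusted p = 0.256; unadjusted p = 0.000647), with -1.76 among July mice and -0.93 among September mice. It passed the threshold with DESeq2 (adjusted p = 0.0387, where 0.21% of all genes passed) and with the RNA integrity number as a covariate in edgeR (log2 fold change -1.61, adjusted p = 0.0385, where 0.137% passed).

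mt-Tc had 0.605 to 3.97 CPM (median 2.49 CPM) in Control d14+3 and 0.385 to 1.49 CPM (median 0.706 CPM) in ExpOF d14+3 mice. Both ranges overlapped, with 3 of 6 overfed mice below every control, and the log2 fold change was -1.44 ± 0.43 (edgeR, adjusted p = 0.410). mt-Tw had 0.428 to 1.65 CPM in controls and 0.22 to 0.522 CPM in ExpOF mice, with -1.36 ± 0.39 (edgeR, adjusted p = 0.344). mt-Tn, the asparagine tRNA, had -1.40 ± 0.49 (edgeR, adjusted p = 0.526), and mt-Tm, the methionine tRNA, had -0.97 ± 0.33 (edgeR, adjusted p = 0.525) with 5 of 6 overfed mice below every control.

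The other tRNAs followed with wide errors. The glutamine tRNA mt-Tq had a log2 fold change of -1.22 ± 0.46, the isoleucine tRNA mt-Ti of -1.17 ± 0.59, the alanine tRNA mt-Ta of -0.96 ± 0.46, the threonine tRNA mt-Tt of -0.91 ± 0.33 and mt-Te of -1.03 ± 0.62. mt-Ti and mt-Tq had 0 to 32 counts per library, where counting error is large. The tRNA gene with the most counts, mt-Tp, had -0.23 ± 0.18 (edgeR, adjusted p = 0.781), with a median of 39.9 CPM in controls and 32.8 CPM in ExpOF mice. Its log2 fold change was the smallest in size among the tested tRNAs. mt-Tp is the minus-strand tRNA at the end of the annotated genes (MT:15356-15422).

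**Figure D4:**
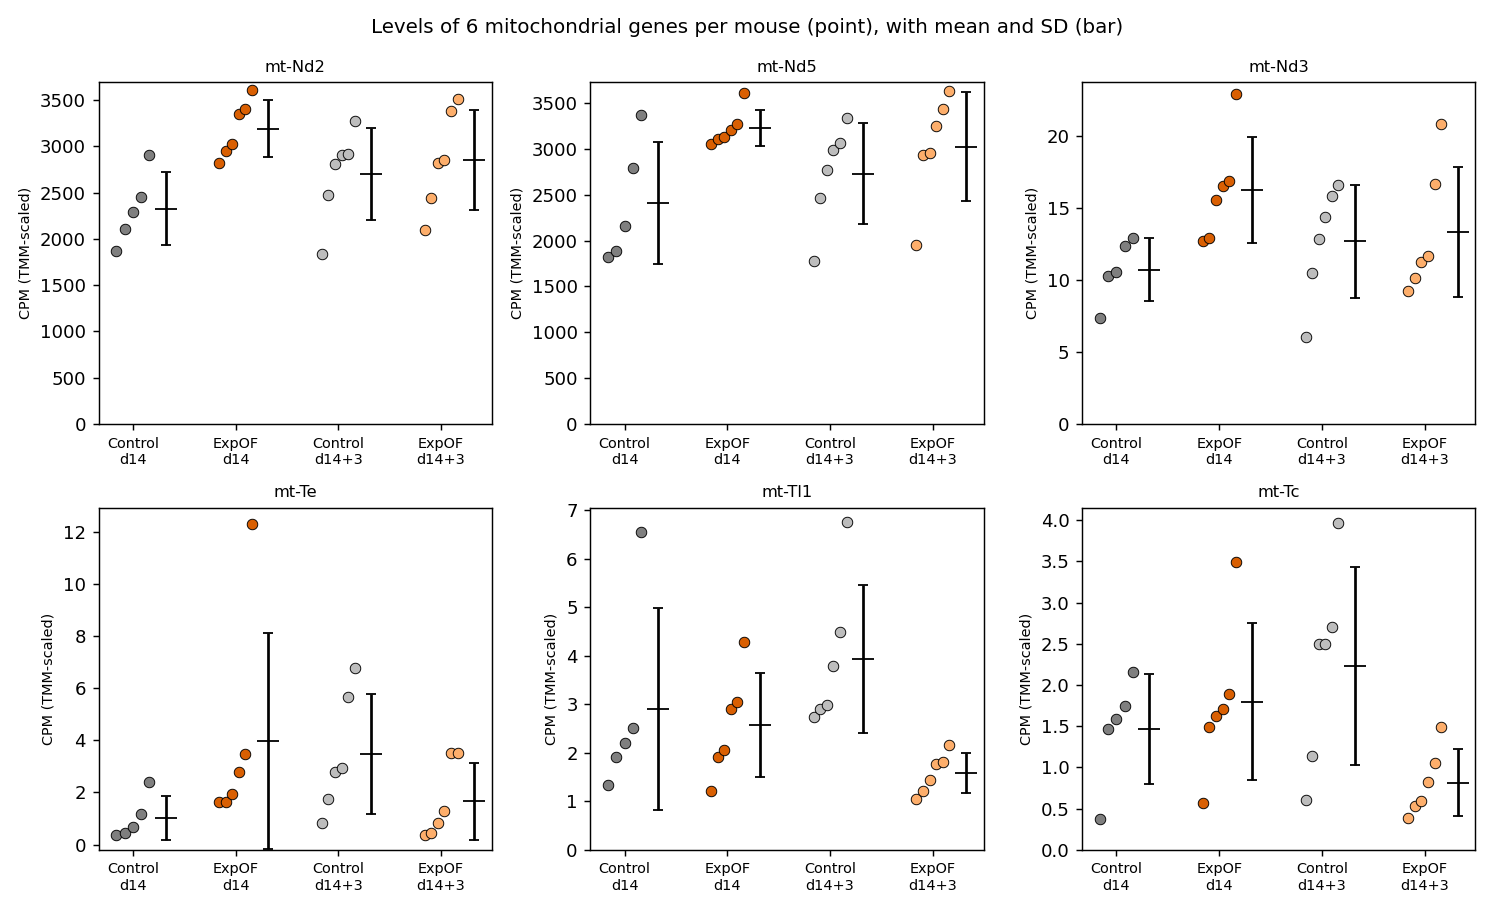
Level per mouse in TMM-scaled CPM (points), with the mean and SD of each group as a bar, for mt-Nd2, mt-Nd5, mt-Nd3, mt-Te, mt-Tl1 and mt-Tc. In the mt-Tl1 panel the ExpOF d14+3 mice, at 1.05 to 2.17 CPM, lie below all Control d14+3 mice, and in the mt-Nd2 panel 5 of 6 ExpOF d14 mice lie above all Control d14 mice.

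The d14+3 controls included 3 libraries with RIN under 8.5 (replicates 4, 5 and 6), and no ExpOF d14+3 library was that low. By the labels RNA was extracted in 2 rounds, and all libraries of RIN under 8.5 came from round 2. Leaving them out keeps Control d14+3 replicates 1, 2 and 3, all of round 1, beside ExpOF d14+3 mice of both rounds. RIN and extraction round therefore cannot be told apart in the values that follow. Without the 4 libraries of RIN under 8.5 in the data, the log2 fold change on d14+3 was -1.59 for mt-Tl1 (edgeR, adjusted p = 0.141), -1.60 for mt-Tw, -1.52 for mt-Tc, -0.72 for mt-Te and -0.10 for mt-Tp. The tRNA sum without mt-Tp then differed by -11.2 CPM, against -10.7 with all libraries. The highest tRNA sums of the Control d14+3 group, 27.5, 23.3 and 21.8 CPM, belonged to replicates 2, 6 and 3 with RIN 9.3, 7.9 and 9.9.

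The mRNAs on d14+3 had log2 fold changes between -0.22 for mt-Nd6 (± 0.10; edgeR, adjusted p = 0.650) and 0.15 for mt-Nd5 (± 0.15; edgeR, adjusted p = 0.805). mt-Nd2, which had the smallest p on d14, had 0.08 ± 0.13 with 1839 to 3275 CPM in controls and 2091 to 3512 CPM in ExpOF mice, which overlapped widely. mt-Rnr1 had -0.23 ± 0.11 (edgeR, adjusted p = 0.697) and mt-Rnr2 had -0.17 ± 0.12 (edgeR, adjusted p = 0.773). The rRNAs made up 16.0% ± 0.693 of the mitochondrial counts in Control d14+3 and 13.8% ± 1.77 in ExpOF d14+3 mice (SD, n = 6 each), and 4 of 6 ExpOF mice lay below every control.

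The difference between the days was tested directly. In the overfeeding-by-day interaction all 21 genes had negative values. Of the 21, 0 passed edgeR's test (0% of all genes tested did) and every adjusted p was 0.903. An unadjusted p under 0.05 with a negative value was found for 10 of them, which 1.64% of all genes tested had. DESeq2 called 0 of the 21 and 0 of all genes. The largest was mt-Te with -2.81 ± 0.93, followed by mt-Tn with -2.26 ± 0.71. The protein-coding genes ran from -0.51 for mt-Nd3 to -0.09 for mt-Co1. A difference between the days in the effect of overfeeding therefore did not pass the test for any of the 21 genes.

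Between the days within a treatment, no mitochondrial gene passed either. From Control d14 to Control d14+3 all 21 genes had positive log2 fold changes with a median of 0.22. Of the 21, 0 were called by edgeR, against 1.15% of all genes tested, and 0 by DESeq2, which called 531 of 17480 genes. The only unadjusted p under 0.05 among them was that of mt-Te (1.72 ± 0.68, edgeR, adjusted p = 0.267). With a higher level 6.81% of all genes reached it. From ExpOF d14 to ExpOF d14+3 all 21 had negative values with a median of -0.34. Of the 21, 0 were called by edgeR, against 0% of all genes, and 0 by DESeq2, which called 189 of 19027 genes. An unadjusted p under 0.05 (edgeR) was found for 6 tRNA genes, against 2.4% of all genes with a lower level. Each of these comparisons shares its mice with an overfeeding comparison, so they are not independent of it: the low tRNA levels of ExpOF d14+3 mice and the high ones of Control d14+3 mice enter both.

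The nuclear genome encodes the remaining subunits of the same complexes, and their log2 fold changes on d14 had the opposite sign to those of the mitochondrial mRNAs. The lists held 36 nuclear subunits of complex I, 9 of complex III, 11 of complex IV and 16 of ATP synthase, and all 72 were tested. On d14 all 72 had negative log2 fold changes. Of the 72, 0 were called by edgeR, against 0.00527% of all genes, and 0 by DESeq2, which called 165 of 12844 genes. An unadjusted p under 0.05 with a lower level (edgeR) was found for 55 of the 72, against 13.6% of all genes tested. Their median was -0.32, against 0.21 for the 8 mitochondrial mRNAs and -0.02 for all genes. On d14+3 69 of 72 were negative with a median of -0.22. Of the 72, edgeR called 0, against 0% of all genes, and DESeq2 called 3, against 0.21% of all genes. An unadjusted p under 0.05 with a lower level (edgeR) was found for 36, against 4.2% of all genes tested.

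These counts moved with single mice too. Without Control d14 replicate 1, 54 of the 72 were called on d14, when 22% of all genes tested were called. Without Control d14 replicate 5 the count with a lower level at an unadjusted p under 0.05 was 25, against 8.38% of all genes tested, and without replicate 2 it was 24, against 7.85%. The median on d14 stayed negative, at -0.41, -0.27 and -0.26 in these fits, and it was -0.38 among July mice, -0.21 among September mice and -0.82 with the left-out library. On d14+3 the median was -0.15 without Control d14+3 replicate 3 and -0.37 without the libraries of RIN under 8.5.

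By complex, the median on d14 was -0.32 for complex I, -0.24 for complex III, -0.34 for complex IV and -0.32 for ATP synthase, and on d14+3 it was -0.21, -0.21, -0.38 and -0.20. The largest negative values on d14 were those of the small subunits Ndufa2 of complex I (-0.58 ± 0.19), Uqcrq of complex III (-0.51 ± 0.18), Cox6a1 of complex IV (-0.54 ± 0.21) and Atp5e of ATP synthase (-0.48 ± 0.18), with adjusted p of 0.135 to 0.141 (edgeR). The values nearest 0 were those of Ndufs1 (-0.02 ± 0.05), the largest subunit of complex I, Uqcrc2 (-0.03 ± 0.04), Cox7b (-0.26 ± 0.13) and Atp5l (-0.03 ± 0.12). On d14+3 the lowest were Ndufa3 (-0.60 ± 0.14; edgeR, adjusted p = 0.227), Uqcr11 (-0.45 ± 0.17; edgeR, adjusted p = 0.546), Cox7c (-0.80 ± 0.18; edgeR, adjusted p = 0.227) and Atp5k (-0.77 ± 0.19; edgeR, adjusted p = 0.256), and the highest were Ndufs1 (0.04), Uqcrc2 (0.04), Cox5a (-0.04) and Atp5l (0.11).

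The machinery that copies, transcribes and processes mitochondrial nucleic acids had values nearer 0. EdgeR and DESeq2 called 0 of its genes and of the regulators below on either day. Over all genes DESeq2 called 165 of 12844 on d14 and 40 of 19027 on d14+3. Without Control d14 replicate 1, edgeR called 4 genes of RNA processing and 4 of the regulators on d14, beside the 22% of all genes given above. At an unadjusted p under 0.05, the shares of all genes tested were 13.1% with a higher and 13.6% with a lower level on d14, and 2.91% and 4.2% on d14+3, and the counts that follow stand beside these. Of the 10 genes of mitochondrial DNA replication 1 had an unadjusted p under 0.05 on d14 (lower) and 1 on d14+3 (higher), and their medians were -0.09 on d14 and 0.02 on d14+3; the ends on d14 were Polrmt (-0.14) and Primpol (0.08), a primase-polymerase, and on d14+3 Rnaseh1 (-0.14) and Primpol (0.25). Of the 10 genes of mitochondrial transcription 1 had an unadjusted p under 0.05 on d14 (lower) and 0 on d14+3, with medians of -0.05 and 0.05. The polymerase Polrmt had -0.14 ± 0.10 and -0.05 on the 2 days, and Tfam, which packages mitochondrial DNA and starts transcription, had -0.13 and 0.06. Among the genes of that list with a mean of at least 50 counts, the highest values were those of Tfb2m on d14 (0.16) and Tfb1m on d14+3 (0.09), and Mterf1a had the lowest on d14+3 (-0.06).

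Of 22 genes of mitochondrial RNA processing and stability 21 were found and tested. On d14 2 had an unadjusted p under 0.05 with a higher and 5 with a lower level, on d14+3 4 and 1, and the medians were -0.01 and -0.03. Slirp, which binds and stabilises mitochondrial mRNAs with Lrpprc, had the lowest value on both days (-0.32 ± 0.13 and -0.36 ± 0.13; edgeR, adjusted p = 0.148 and 0.526). Fastkd2, a mitochondrial RNA-binding protein, had the highest on d14 (0.21) and Trnt1, which adds the CCA end to tRNAs, the highest on d14+3 (0.20). Of the 10 regulators of mitochondrial biogenesis 6 had an unadjusted p under 0.05 with a higher level on d14 and 0 on d14+3, with medians of 0.18 and 0.03. The count of 6 was 2 without Control d14 replicate 5 and 3 without replicate 2. Ppargc1b, a coactivator of this programme, had the highest value on both days (0.37 ± 0.17 and 0.25 ± 0.16) and the nuclear receptor Esrra the lowest (-0.15 and -0.10).

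**Figure D5:**
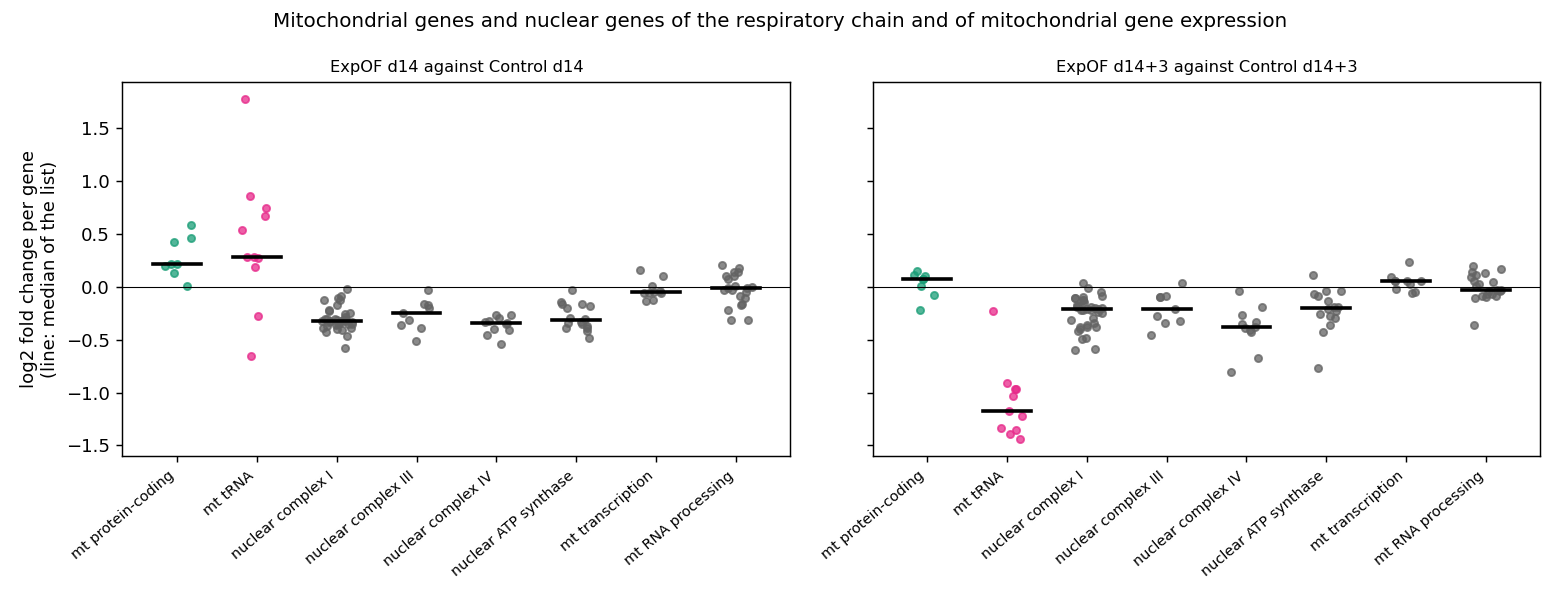
Log2 fold change of each gene (points) and the median of each list (line) for the tested mitochondrial protein-coding and tRNA genes and for nuclear lists, ExpOF against control mice on d14 (left) and d14+3 (right). On d14 the mitochondrial mRNAs (median 0.21) lie above 0 and all 72 nuclear subunits lie below 0, and on d14+3 the tRNAs (median -1.17) lie lowest.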

How the data were processed

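The authors deposited raw counts per gene without normalization. Per the labels and the study's methods, poly-A selected, stranded libraries were read as paired ends of 51 bases, aligned with STAR to mm10 and counted with featureCounts 1.6.4 on GENCODE vM22. The strand setting and the treatment of reads with several positions or over 2 genes are not given in the sources used here.

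Using edgeR 4.0.16 under R 4.3.3, all 4 groups (23 libraries) entered 1 robust quasi-likelihood fit after TMM scaling and filterByExpr (count at least 10, total at least 15). Benjamini-Hochberg adjustment covered all 18992 tested genes, and an adjusted p under 0.05 was called. DESeq2 1.42.0 was an alternative. Library totals ran from 8928182 to 34848437 counts; p-values measure the spread between single mice. The mitochondrial genes and the lists (nuclear subunits, mitochondrial replication, transcription, RNA processing, biogenesis, cell type markers) were chosen with earlier results of these data known. Named are all 37 genes and, per nuclear list, the largest change up and down on each day, mean count 50 or more; other single genes, such as the nuclear copies, were picked afterwards. Alternatives covered test, scaling, filter, samples, cohorts, covariates, a replicate block and each library left out; leaving out libraries of RIN under 8.5 and scaling by nuclear genes were added after the data were seen. The left-out library was identified through the study's mean values. The edgeR fit was tested on simulated data.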

Additional observations from a re-analysis of the deposited data

Results flagged for a closer look

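In 104 groups of values (21 genes and 5 shares in 4 groups), 9 had a highest or lowest mouse that stood apart from the others of its group, and chance alone gives about 1 in 20. Control d14 replicate 6 stood above its group for mt-Tl1 (6.55 CPM, others 1.33 to 2.52), mt-Tm (3.96 CPM, others 1.24 to 1.63), mt-Tt (0.919 CPM, others 0.322 to 0.466) and the tRNA share (0.00715% of all counts, others 0.00365% to 0.00463%). ExpOF d14 replicate 5, the shallowest library, stood above its group for mt-Te (12.3 CPM, others 1.63 to 3.46) and the tRNA share (0.00973%, others 0.00463% to 0.00603%). Control d14+3 replicate 1 stood below its group for mt-Nd4 (1998 CPM, others 2485 to 2767), mt-Cytb (5341 CPM, others 6293 to 6719) and the share of all 37 genes (2.96%, others 3.74% to 4.18%).

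Control d14 replicate 4, which is not among the 23 libraries, had 1.14% of its counts on the mitochondrial rRNAs, where the other libraries had 0.403% to 0.707%. The rRNAs made up 48.2% of its mitochondrial counts, against 11.8% to 17.8% in the others, although its RIN in the labels was 9.8.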

How the results depend on the processing

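The number of mitochondrial genes called was 0 in all 5 comparisons and stayed 0 under all but 3 settings. Without 1 library at a time it ran from 0 to 4 on d14, where 4 were called without Control d14 replicate 1, and was 0 in the other comparisons. On d14+3 it was 1 (mt-Tl1) with DESeq2 and 1 (mt-Tl1) with RIN as a covariate. The cause was not tested. The difference in share, 0.523 points on d14, ran from 0.396 to 0.603 points without 1 library at a time. On d14+3, 0.0439 points, it ran from -0.132 to 0.181 points.

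Of the log2 fold changes on d14, these changed sign: with all 24 libraries mt-Rnr1 (-0.16), mt-Rnr2 (-0.17), mt-Nd6 (-0.069) and mt-Tt (-1.07); in the July cohort mt-Tc (-0.066) and mt-Nd6 (-0.043); in the September cohort mt-Tl1 (0.16); without the libraries of low RIN mt-Tc (-0.073) and mt-Nd6 (-0.048); and with the replicate block mt-Nd6 (-0.0047). With 1 library left out, mt-Tl1 ran from -0.45 to 0.28, mt-Tc from -0.076 to 0.40 and mt-Nd6 from -0.051 to 0.044. On d14+3 mt-Nd1 was 0.050 without the libraries of low RIN, mt-Nd3 was -0.011 in the September cohort, and mt-Cytb was -0.00071 with at least 1 count in all libraries together, -0.0032 with all 24 libraries and -0.030 in the July cohort. With 1 library left out, mt-Nd2 ran from -0.0094 to 0.15, mt-Nd3 from -0.096 to 0.17 and mt-Cytb from -0.036 to 0.038.

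The replicate numbers do not pair the mice: of 33 same-numbered pairs from different groups 6 had deviations correlated above 0.1 (median r = -0.03), and 1 of 23 libraries correlated best with its own number. With the replicate number as a block 0 mitochondrial genes were called. Counting depth limits the tRNAs: without mt-Tp all tRNA genes together had 85 to 795 counts per library.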
